A study of Mus musculus with 4 samples.

Results

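Genes that carry, oxidise or reduce retinol and other alcohols were followed in embryonic mouse gut epithelium with and without Yy1, a zinc finger transcription factor. The 9 genes were Adh1, Adh5, Adh7, Aldh1a1, Aldh1a2, Aldh1a3, Rbp2, Dhrs3 and Crabp2, out of 18193 genes with a probe set of a single symbol. They were read by 13 probe sets of the 45037 on the array, 1 each for 6 genes and several for the other 3. The genes were chosen with the knockout and control values of these same arrays known, so their differences are given as a description, without a test.

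The arrays held RNA of Epcam-positive cells from E15.5 small intestine, isolated magnetically from gut that reached from the proximal stomach to the distal caecum. Epcam is an adhesion protein of epithelial cells. The 2 controls were YY1f/f, that is, they had loxP-flanked Yy1 alleles and no Cre. The 2 knockouts were Yy1f/f; Shh-Cre, with the recombinase driven from the Shh locus, which is active in gut endoderm. Controls were littermates, and tissue of up to 2 embryos was pooled per sample. Since only the knockouts carried Cre, loss of Yy1 and an effect of the Cre allele cannot be told apart. Shh itself, whose locus drives the Cre, fell from log2 values of 7.42 and 7.38 to 5.55 and 5.36 (log2 change -1.95, SE 0.115, limma, adjusted p = 0.000812). The p-values measure the spread between such pooled samples.

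Vitamin A reaches the body through the gut. Retinol is bound inside absorptive cells by cellular retinol-binding proteins and is either esterified for transport or oxidised, first reversibly to retinal and then irreversibly to retinoic acid, the ligand of the nuclear receptors RAR and RXR. Alcohol dehydrogenases (Adh) and short-chain dehydrogenases catalyse the first oxidation, retinal reductases such as Dhrs3 reverse it, and the Aldh1a enzymes carry out the second. Retinoic acid patterns the embryonic gut, and the same alcohol and aldehyde dehydrogenases also act on ethanol, formaldehyde and lipid aldehydes.

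Values are log2 intensities after GCRMA, and the lowest value of every array was 2.358. A value within 0.1 of it is called near the lowest value. A probe set was tested in the fit across all probe sets when 2 or more arrays reached a log2 value of 4, called the filter level here. Yy1 itself fell from 8.81 ± 0.02 to 7.04 ± 0.32 (SD, n = 2), which is 29.3% of the control (limma, adjusted p = 0.00209; 0.0504 without control 2). Correlation between arrays was 0.99 within the controls, 0.989 within the knockouts and 0.905 to 0.925 across genotypes. All 11 general epithelium markers were tested and had a median log2 change of -0.26, with Epcam at -0.44 (adjusted p = 0.0287). All 11 tested enterocyte markers fell, with a median of -4.02, and all 9 tested mesenchyme markers and 6 tested smooth muscle markers rose, with medians of 2.16 and 3.22. Of these lists, 3, 5 and 1 markers were under the filter level on both arrays of 1 genotype, which fixed their direction.

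The sequences just upstream of Adh1 and Rbp2 are shown because these genes had the largest falls among the 9. Each is the RefSeq sequence of the 250 bases before the annotated start in build GRCm38.p6, on the plus strand, 5′ to 3′, and capitals mark matches to 5 short motifs. The Adh1 window, chr3:138277335-138277584, held none of them, and the Rbp2 window, chr9:98490287-98490536, held 4 matches.
Adh1: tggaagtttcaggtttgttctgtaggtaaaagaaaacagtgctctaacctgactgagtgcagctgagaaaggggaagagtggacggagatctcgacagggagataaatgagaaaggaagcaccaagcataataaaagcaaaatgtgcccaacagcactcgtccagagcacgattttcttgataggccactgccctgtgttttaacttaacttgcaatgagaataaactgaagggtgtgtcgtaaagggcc
Rbp2: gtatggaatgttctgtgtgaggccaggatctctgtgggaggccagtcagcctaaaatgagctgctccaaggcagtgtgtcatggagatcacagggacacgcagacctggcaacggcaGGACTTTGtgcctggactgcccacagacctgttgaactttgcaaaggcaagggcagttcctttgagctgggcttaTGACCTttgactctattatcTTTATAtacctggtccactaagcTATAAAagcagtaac

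The motifs were AAGATGGC for YY1, AGGTCA for nuclear receptors, CAAAGTCC for HNF4, TTTATG for CDX and TATAAA as a TATA box, each searched on both strands. In the Rbp2 window the HNF4 letters lay 133 to 126 bases and the nuclear receptor letters 58 to 53 bases before the start, both on the opposite strand. TATA letters lay 38 to 33 bases before the start on the opposite strand and 15 to 10 bases before it on the same strand. Of 32841 such mouse windows, 1.2% held the HNF4 letters, 14.0% the nuclear receptor letters and 12.4% the TATA letters. Windows were given for 7 of the 9 genes, all but Aldh1a3 and Crabp2. None of their 11 windows held the YY1 letters, which 1.56% of all windows held, and this says only that these letters are not in these windows.

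Of the 9 genes, 5 were tested: Adh1, Rbp2, Dhrs3 and Adh5 were lower in the knockout and Aldh1a1 was higher. Over all 8626 genes tested, 21.7% were called lower and 17.9% higher (limma, adjusted p under 0.05), so with members chosen by this contrast nothing is read from the 4 and the 1. The other 4 genes, Aldh1a2, Aldh1a3, Adh7 and Crabp2, did not reach the filter level on enough arrays. In tissue RNA, fewer cells that express a gene and less RNA per cell cannot be told apart.

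**Figure D1:**
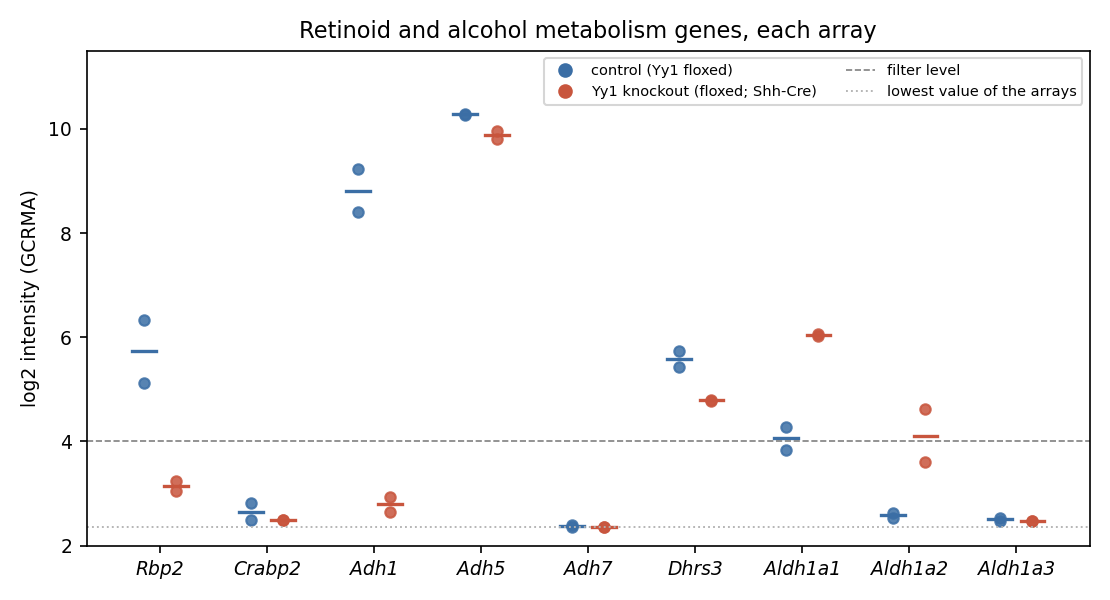
Log2 intensity (GCRMA) of the brightest probe set of each of the 9 genes on each array. Points are arrays, short bars the means of 2 arrays, the dashed line the filter level of 4 and the dotted line the lowest value of 2.358. Adh1 and Rbp2 drop below the filter level in both knockouts. Aldh1a1 has controls on either side of that level and both knockouts above it. Crabp2, Adh7 and Aldh1a3 lie between 2.358 and 2.814 throughout.

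Rbp2 encodes the cellular retinol-binding protein of absorptive enterocytes, which holds retinol and retinal for esterification. Its log2 value was 5.13 in control 1, 6.33 in control 2, 3.24 in knockout 1 and 3.05 in knockout 2. Both controls lay above both knockouts, and the controls differed from each other by 1.20. The group means were 5.73 ± 0.85 and 3.15 ± 0.14 (SD, n = 2), a log2 change of -2.58 (SE 0.384), or 16.7% of the control. Both knockouts were under the filter level, so as a bound Rbp2 was at least 3.32-fold lower, with the control mean set against a log2 value of 4. This bound is used for every fold against a group that was dim on both arrays, where both arrays of the other group were above the filter level. Without control 2 the change was -1.98, without control 1 it was -3.19, and with an offset of 16 before the log2 it was -1.50.

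Crabp2, whose protein brings retinoic acid to its nuclear receptor, had a log2 value of 2.81 in control 1 and of 2.49 on each of the other arrays. All 4 values were far under the filter level, so no difference could be read from this probe set.

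Adh1, the class I alcohol dehydrogenase that oxidises ethanol and retinol, had log2 values of 8.40 and 9.23 in controls 1 and 2, against 2.65 and 2.93 in knockouts 1 and 2. The controls were bright and both knockouts lay under the filter level, with 5.47 between the lower control and the higher knockout. The means were 8.81 ± 0.59 and 2.79 ± 0.20 (SD, n = 2), a log2 change of -6.02 (SE 0.286). Taken at face value, the knockout intensity was 1.54% of the control, a 65.1-fold difference, and against the filter level Adh1 was at least 28.1-fold lower. Leaving out 1 array gave changes between -6.44 (without control 1) and -5.61 (without control 2), while an offset of 16 added before the log2 shortened the change to -4.35. With that offset the lipid-handling genes Fabp1 and Apoa1 and the mucosal glycoprotein gene Dmbt1 had larger falls, of -5.11, -4.87 and -4.52, so no place of Adh1 in the order of all genes is given.

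Adh5 encodes the class III enzyme, the glutathione-dependent formaldehyde dehydrogenase present in nearly all cells. It stayed bright in every sample, at 10.27 and 10.29 for the controls against 9.81 and 9.96 for the knockouts. The knockouts were lower than both controls, and the groups did not overlap. The means were 10.28 ± 0.01 and 9.88 ± 0.11 (SD, n = 2), a change of -0.39 (SE 0.109), to 76.1% of the control. The change was -0.32 without knockout 1 and -0.47 without knockout 2, and the fit called Adh5 in none of the 4 fits with 1 array left out. A further Adh5 probe set gave values between 2.37 and 2.39 on all arrays.

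Adh7, the class IV enzyme with high activity towards retinol that is typical of the upper digestive tract, was read by 2 probe sets. The first gave 2.40 for control 2 and 2.36 for the other arrays, and the second was at the lowest value of 2.358 on all 4 arrays. At this signal a difference in Adh7 was not detectable.

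The Adh genes of the mouse form a cluster on chromosome 3, and in the RefSeq gene order all 6 on the array were consecutive: Adh7, Adh1, Adh6a, Adh6b, Adh4 and Adh5. Adh6a, Adh6b and Adh4 lay near the lowest value on all arrays, so Adh1 and Adh5 were the measured members of the cluster. Of the 3 protein-coding genes on either side, 4 of the 6 were tested, and 1 fell and none rose (limma; 2 were lower and 0 higher at an unadjusted p under 0.05). The gene that fell was Mttp, the microsomal triglyceride transfer protein that loads lipid onto lipoproteins in enterocytes. It went from 7.15 and 7.55 to 2.64 and 2.99, a change of -4.53 (SE 0.188, adjusted p = 0.000686). Both knockouts were under the filter level, so Mttp entered the test through its controls, which fixed its direction. Between Mttp and Adh1 on the chromosome, the RNA methyltransferase gene Trmt10a changed by 0.09 (SE 0.22, adjusted p = 0.765), a value that turned to -0.23 without knockout 2. On the other side, next to Adh5, Metap1 changed by -0.23 (SE 0.105, adjusted p = 0.138) and the translation factor gene Eif4e by -0.38 (SE 0.13, adjusted p = 0.0735). The remaining neighbours were not tested: 4930579F01Rik was near the lowest value, and Tspan5 read 3.25 and 3.0 for the controls, against 3.95 and 4.0 for the knockouts.

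**Figure D2:**
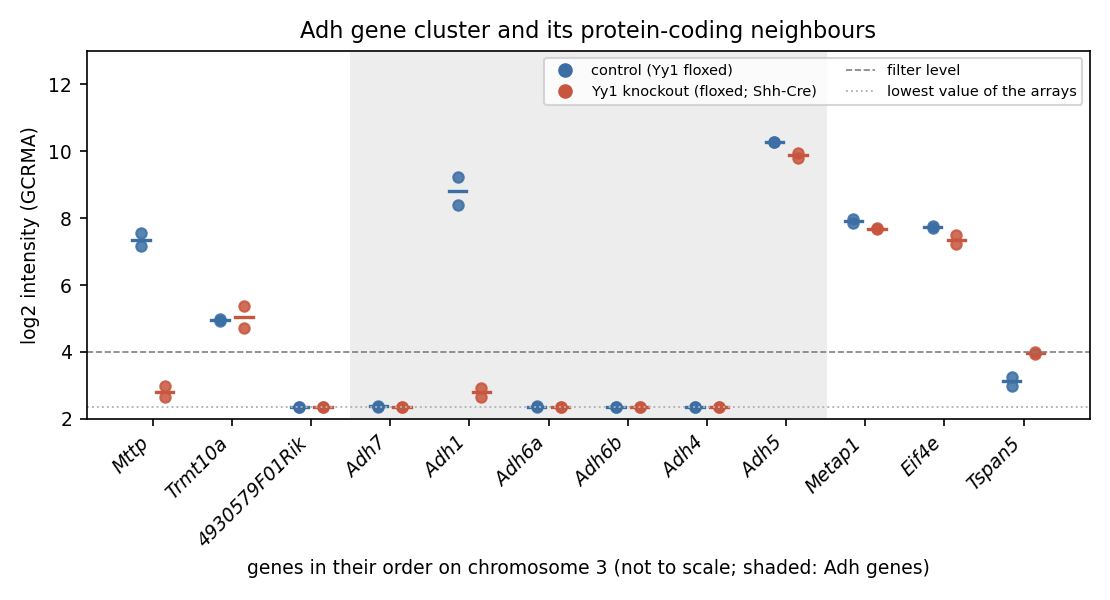
Log2 intensity (GCRMA) on each array for the 6 Adh genes (shaded) and the 3 protein-coding neighbours on either side, in their order on chromosome 3, not to scale. Points are arrays and short bars the means of 2 arrays; the dashed line is the filter level of 4 and the dotted line the lowest value. Adh1 and Mttp fall below the filter level in both knockouts, while Adh5, Metap1 and Eif4e stay bright.

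Dhrs3 reduces retinal back to retinol and is itself induced by retinoic acid, so it restrains the pathway. The controls had log2 values of 5.43 and 5.74 and the knockouts 4.79 and 4.78. Both knockouts lay below both controls and close to each other. The means were 5.58 ± 0.21 and 4.79 ± 0.005 (SD, n = 2), a change of -0.80 (SE 0.135), to 57.6% of the control. In the order of changes without an offset it stood at place 901 from the bottom of 8626 genes. The change was -0.95 without control 1, -0.64 without control 2 and -0.55 with an offset of 16 before the log2.

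Aldh1a1, Aldh1a2 and Aldh1a3 are the retinal dehydrogenases, which make retinoic acid. For Aldh1a1 the controls read 3.85 and 4.28 and the knockouts 6.07 and 6.02 on the log2 scale. Both knockouts were well above both controls, of which 1 was under the filter level. The means were 4.06 ± 0.31 and 6.04 ± 0.04 (SD, n = 2), a change of 1.98 (SE 0.165), which is 3.95-fold. Without an offset it was at place 134 from the top of 8626 genes. The change stayed between 1.77 and 2.20 with 1 array left out and was 1.32 with an offset of 16 before the log2.

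Aldh1a2, the main retinoic acid-producing enzyme of the early embryo and known from mesenchymal tissues, read 2.54 and 2.63 for the controls, against 4.62 and 3.61 for the knockouts. It was above the filter level on knockout 1 alone and was therefore not tested. The groups did not overlap, with a gap of 0.98, yet the knockouts differed from each other by 1.0. The difference of the means was 1.53, but both controls and knockout 2 were under the filter level, so no bound is given. The authors' deposited table, in which 4 of the 9 genes were listed, gave the same log2 fold change of 1.53 for Aldh1a2. The authors' deposited table also gave -6.02 for Adh1, -2.58 for Rbp2 and 1.98 for Aldh1a1. It held 2156 probe sets, the smallest change among them being 1.0 in size, so Dhrs3 and Adh5 lay outside that limit.

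Aldh1a3 was read by 3 probe sets, with values from 2.36 to 2.53 on all arrays. Together with Adh7 and Crabp2 it made up 6 probe sets whose values all lay between 2.358 and 2.814. Among the 3 retinal dehydrogenases, Aldh1a1 was thus the 1 tested.

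The other genes of the pathway were grouped into 7 lists by role, with 73 genes in all. Of these, 65 were on the array and 31 were tested: 4 rose, 14 fell and 13 did not pass, with a median change of -0.50 against -0.03 over all genes tested. Over all genes 17.9% rose and 21.7% fell, and these shares are the background of every list below as well. The lists were chosen with earlier results of these data known, so their counts and medians are a description. Of these 31, 25 were not under the filter level on both arrays of either genotype. Among the 25, 2 rose and 10 fell, with a median of -0.43. Rdh11, Aldh1a7, Aldh1l1 and Cdx1 entered the test through their controls and Meis1 and Meis2 through their knockouts, which fixed their directions. The calls of this paragraph and the next ones are limma's, adjusted over all 16887 probe sets tested.

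**Figure D3:**
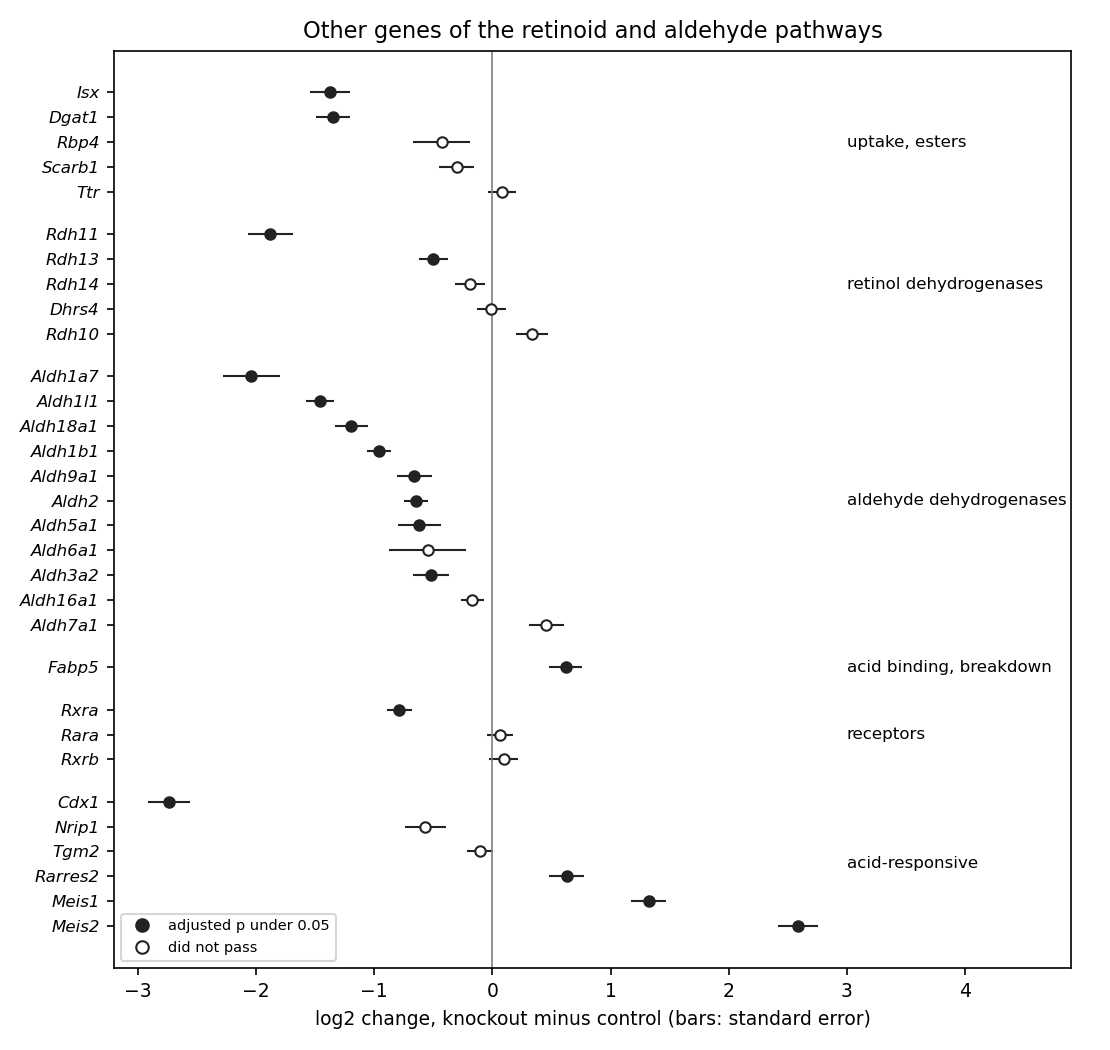
Log2 change, knockout minus control, of the 31 tested genes of the wider pathway, grouped by role, with bars for the standard error. Filled points passed an adjusted p of 0.05 and open points did not. Most of the aldehyde dehydrogenases lie left of 0, and Meis2, Meis1, Rarres2 and Fabp5 are the 4 genes that rose.

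Around Rbp2, in retinol uptake, transport and ester formation, 5 of 12 genes on the array were tested, and 2 fell while none rose (0 higher and 2 lower also at an unadjusted p under 0.05). Isx, the intestinal homeobox gene that represses carotenoid cleavage and uptake, fell from 7.83 ± 0.09 to 6.46 ± 0.29 (SD, n = 2), a change of -1.37 (SE 0.166, adjusted p = 0.0037; 0.0643 without control 2). Dgat1, an acyltransferase that makes triglycerides and can esterify retinol, fell from 7.58 ± 0.19 to 6.23 ± 0.14 (SD, n = 2), a change of -1.35 (SE 0.143, adjusted p = 0.0026). The plasma carriers Rbp4 and Ttr and the uptake receptor Scarb1 had changes of -0.43, 0.08 and -0.30 and did not pass. Lrat, the main retinol esterifying enzyme, and the retinol receptor Stra6 were among the 7 genes under the filter level.

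Beside Dhrs3, 5 of 14 retinol dehydrogenases and reductases on the array were tested, of which 2 fell and none rose (0 higher at an unadjusted p under 0.05). Rdh11, a retinal reductase, fell from 5.29 ± 0.30 to 3.41 ± 0.22 (SD, n = 2), a change of -1.88 (SE 0.188, adjusted p = 0.0023), which makes it at least 2.45-fold lower. It entered the test through its controls, which fixed its direction. Rdh13, a mitochondrial relative, fell by 0.50 on the log2 scale (SE 0.12, adjusted p = 0.0268), but its adjusted p was between 0.0584 and 0.129 with any 1 array left out. Rdh10, the main retinol dehydrogenase of the embryo, read 6.16 and 6.44 for the controls, against 6.69 and 6.59 for the knockouts, a change of 0.34 (adjusted p = 0.105). Rdh14 and Dhrs4 did not pass either, at -0.19 (adjusted p = 0.29) and -0.01 (adjusted p = 0.972). Further Rdh14 probe sets, not tested, differed by 0.45 and 1.18 between the group means, higher in the knockouts. With quantile normalization 1 gene of the list rose and 2 fell.

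Of 17 other aldehyde dehydrogenases, all on the array, 11 were tested: 8 fell, none rose and 3 did not pass, with a median of -0.64 (limma; 1 was higher and 8 lower at an unadjusted p under 0.05). Of the 9 not under the filter level on both arrays of either genotype, 6 fell, with a median of -0.62. The number that fell was 4 without either control, 5 without knockout 1 and 2 without knockout 2. With quantile normalization 1 rose and 7 fell, and with an offset of 16 before log2 or with trend and robust options 1 rose and 8 fell. Aldh1l1, which oxidises formyltetrahydrofolate, fell by 1.46 on the log2 scale (SE 0.118, adjusted p = 0.0014), to values of 2.83 and 2.63 in the knockouts, at least 1.14-fold lower. Aldh18a1, which starts proline synthesis, fell by 1.19 (SE 0.138, adjusted p = 0.0033; 0.0545 without knockout 2). Aldh1b1, a mitochondrial enzyme, fell from 9.07 ± 0.02 to 8.12 ± 0.05 (SD, n = 2), a change of -0.96 (SE 0.102, adjusted p = 0.0026). Aldh2, the mitochondrial enzyme that clears acetaldehyde and was named here with its value already known, fell by 0.64 (adjusted p = 0.00771; 0.0474 to 0.0652 with 1 array left out). Aldh6a1, Aldh16a1 and Aldh7a1 did not pass, at -0.55, -0.17 and 0.46, although a further Aldh16a1 probe set fell by 0.61 (adjusted p = 0.0101).

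Aldh1a7, a rodent paralog of Aldh1a1, went the other way from it. The controls read 4.73 and 5.45 on the log2 scale and the knockouts 3.01 and 3.09, both under the filter level. The change was -2.04 (SE 0.241, adjusted p = 0.0035), at least 2.13-fold lower, and the adjusted p was 0.0553 without knockout 1 and 0.0615 without knockout 2. The paralogs are much alike, and whether the probe set of each reads the other's RNA was not tested. They are on chromosome 19, on opposite strands, and the 100 bases before the start are shown because these genes moved in opposite directions with nearly the same upstream sequence. The Aldh1a1 sequence, of its second annotated start, is chr19:20601868-20601967 on the plus strand, and that of Aldh1a7 is chr19:20727557-20727656 on the minus strand, from RefSeq in build GRCm38.p6, 5′ to 3′. Capitals mark the bases that differ.
Aldh1a1: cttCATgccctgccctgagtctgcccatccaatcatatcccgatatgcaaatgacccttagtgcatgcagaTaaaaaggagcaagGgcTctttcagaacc
Aldh1a7: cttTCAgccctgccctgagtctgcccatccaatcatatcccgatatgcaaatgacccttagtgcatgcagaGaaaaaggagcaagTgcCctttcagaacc

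Of the 100 bases, 94 were identical and 6 differed. The first annotated start of Aldh1a1, further upstream, shared 30 of 100 bases with the Aldh1a7 window, and which start was used in these cells was not tested.

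Of the genes that bind or break down retinoic acid, Fabp5 was the 1 tested of 4 on the array. Fabp5, a fatty acid-binding protein that can also carry retinoic acid, rose from 9.29 ± 0.02 to 9.91 ± 0.22 (SD, n = 2), a change of 0.62 (SE 0.138, adjusted p = 0.0211). The adjusted p was 0.12 without control 1, 0.128 without control 2 and 0.0719 without knockout 1. A further Fabp5 probe set changed by 0.51 and did not pass (limma, adjusted p = 0.0543). The retinoic acid hydroxylases Cyp26a1 and Cyp26b1 lay near the lowest value on all arrays, and Crabp1, like Crabp2, was under the filter level on all of them. Among 6 receptor genes, 3 were tested and 1 fell, with none rising (0 higher at an unadjusted p under 0.05). Rxra, the common partner of the retinoic acid receptors, fell from 6.06 ± 0.06 to 5.27 ± 0.07 (SD, n = 2), a change of -0.79 (SE 0.107, adjusted p = 0.0051; 0.0625 without control 2 and 0.0524 without knockout 2). Rara and Rxrb had changes of 0.07 and 0.10 and did not pass.

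Of 14 genes on the array that are known to respond to retinoic acid, 6 were tested, of which 3 rose, 1 fell and 2 did not pass. Cdx1, an intestinal homeobox gene, went from 6.33 ± 0.31 to 3.60 ± 0.12 (SD, n = 2), a change of -2.74 (SE 0.174, adjusted p = 0.001), at least 5.03-fold lower. Meis2, a homeobox gene, went from 3.33 ± 0.31 to 5.91 ± 0.06 (SD, n = 2), a change of 2.59 (SE 0.168, adjusted p = 0.001), at least 3.76-fold higher. Its relative Meis1 changed by 1.32 (SE 0.146, adjusted p = 0.0029), at least 1.98-fold higher. Rarres2, the gene of the secreted protein chemerin, changed by 0.63 (SE 0.15, adjusted p = 0.0263), and its adjusted p was 0.112 without control 2, 0.136 without knockout 1 and 0.132 without knockout 2. Nrip1 and Tgm2 had changes of -0.57 and -0.10 and did not pass, although a further Nrip1 probe set fell by 0.70 (adjusted p = 0.0235). Cdx1 entered the test through its controls and Meis1 and Meis2 through their knockouts, which fixed their directions. The list held 3 tested genes that were not under the filter level on both arrays of either genotype. Of these, 1 rose and none fell, with a median of -0.10 (limma). The gene that rose, Rarres2, read 3.95 in control 2, under that level.

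By root mean square difference of the centred log2 values over the 4 arrays, the genes most like Adh1 among the other 8625 tested were Dmbt1 (0.251), Fabp1 (0.325), Apoc3 (0.483), Apoa4 (0.511) and Apoa1 (0.517). Picked for likeness to Adh1, all 5 were by that choice higher in both controls than in both knockouts, with changes from -5.62 for Dmbt1 to -5.08 for Apoa4. Those most like Adh5, the member with the highest control value, were Actg1 (0.008), Hspe1 (0.011), Cdv3 (0.013), Nenf (0.014) and Timm23 (0.015). Likeness over 4 arrays is a description of these arrays.

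Markers of cell types also differed between the genotypes. The mean log2 value of the 11 tested enterocyte markers was 8.80 and 9.33 for the controls, against 5.65 and 5.90 for the knockouts. Like Adh1 and Rbp2, it was higher in control 2 than in control 1. In knockout 2 this mean and Adh1 (2.65 and 2.93) were higher than in knockout 1, while Rbp2 (3.24 and 3.05) was lower. Both genes were under the filter level there. The summed linear level of the 12 enterocyte markers on the array was 9136 and 12010 for the controls against 1020 and 1243 in the knockouts. General epithelium markers had mean log2 values of 8.82 and 8.92 for the controls, against 8.66 and 8.71 for the knockouts. Of these 11 genes 2 rose, 4 fell and 5 did not pass, from -1.13 for Ocln to 0.92 for Cldn4. Aldh1a1 and the untested Aldh1a2 were higher in both knockouts, and so were the mesenchyme and smooth muscle markers. Between the controls, Aldh1a1 (3.85 and 4.28) and Aldh1a2 (2.54 and 2.63) were higher in control 2. Between the knockouts, Aldh1a1 (6.07 and 6.02) and Aldh1a2 (4.62 and 3.61) were lower in knockout 2. The sums of both marker lists, given next, were lower in control 2. In knockout 2 the mesenchyme sum was lower than in knockout 1 and the smooth muscle sum was higher. The 13 mesenchyme markers summed to 746.6 and 614.5 for the controls, against 2444 and 2209 for the knockouts, and the 8 smooth muscle markers to 327.5 and 205.0 against 2372 and 2426. Within these lists Twist1, Twist2 and Lmod1 lay near the lowest value on every array. All 4 tested leukocyte markers, of 7 on the array, and all 5 pancreas markers also rose, with medians of 2.00 and 2.13. Of these, 3 leukocyte markers and 1 pancreas marker were under the filter level in both controls, which fixed their direction. The leukocyte markers summed to 73.81 and 71.03 for the controls, against 228.7 and 267.0 for the knockouts, with Adgre1 near the lowest value. None of the 7 endothelial and none of the 6 squamous foregut markers reached the filter level on enough arrays, and neither did 10 of 11 gastric markers. The remaining gastric marker, Gkn1, rose from 2.41 on both controls to 4.85 and 5.38, at least 2.17-fold higher (limma, adjusted p = 0.00107). Of 8 mesothelium markers on the array 2 were tested, and Upk3b fell by 2.39 on the log2 scale (limma, adjusted p = 0.000919). The other, Krt19, also an epithelium marker, did not pass, at -0.34 (adjusted p = 0.0508). Of the 8, 5 lay near the lowest value on every array. Ednrb, the 1 enteric neural marker tested of 5, rose at least 2.30-fold (adjusted p = 0.0029). Afp, the 1 liver marker tested of 6, fell by 0.89 (adjusted p = 0.0141), and the other 5 were under the filter level on every array. Gkn1 and Ednrb entered the test through their knockouts, which fixed their direction. The part of these markers in the values of Adh1, Rbp2, Aldh1a1 and Aldh1a2 was not tested.

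**Figure D4:**
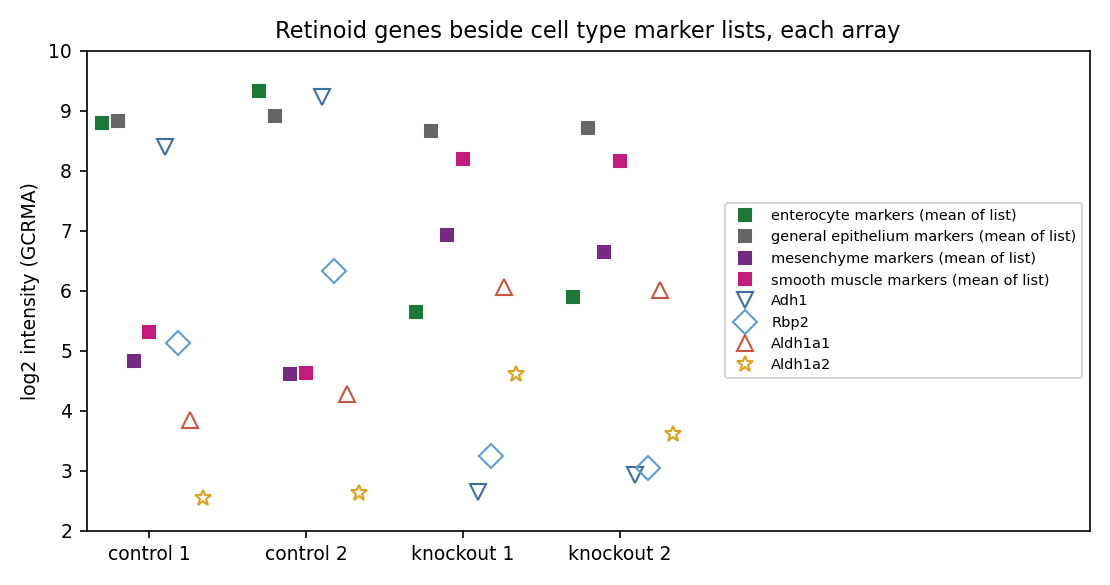
Log2 intensity (GCRMA) on each array. Filled squares are the mean of the tested genes of 4 marker lists, and open symbols are Adh1, Rbp2, Aldh1a1 and Aldh1a2. Adh1 and Rbp2 are lower in both knockouts, as the enterocyte mean is, Aldh1a1 and Aldh1a2 are higher there, as the mesenchyme and smooth muscle means are, and the general epithelium mean stays between 8.66 and 8.92.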

How the data were processed

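RNA of 4 samples, 2 per genotype, was hybridised to Affymetrix mouse arrays, 1 array per sample. The deposited value table held log2 intensities, made by the authors with GCRMA per the submitters' processing notes. GCRMA estimates background from probe sequence and presses dim probe sets onto a common floor, which compresses changes of dim genes. A further table deposited by the authors gave limma's log2 fold changes with p-values and scores, per the file headers and the submitters' notes. Its log2 fold changes equalled knockout minus control of the value table to within 0.00748, though its name puts the wild type first, and its p-values and scores were not used. Versions and settings of the authors' tools are not given in the sources used here. The number of arrays limits the precision, and arrays have no read depth. Between 35.6% and 36.4% of probe sets reached a log2 value of 4 on an array.

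The 64 control probe sets were left out. Of the other 45037, 34945 had 1 symbol in the platform annotation, 932 several and 9160 none listed, and only those with 1 symbol were named. The 16887 probe sets (37.5%) with a log2 value of at least 4 on at least 2 arrays entered a model of genotype alone (limma 3.58.1, lmFit and eBayes, under R 4.3.3), with Benjamini-Hochberg adjustment. For each gene the tested probe set of highest mean was used, and calls were made at an adjusted p under 0.05. The script was tested on simulated data. Genome sequence and gene order came from RefSeq tables of GRCm38.p6. The array files name no build.

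The members, the lists of genes and the motifs were chosen with earlier results of these data known. Named are all 9 members, Yy1, Shh, up to 4 genes of each wider list with the largest change past the threshold and groups that did not overlap, genes behind counts of 5 or fewer, the neighbours of the Adh cluster, and the 5 genes most like Adh1 and Adh5. Some genes of the wider lists were not analysed here. Replicate numbers do not pair the samples: deviations of same-numbered arrays correlated at -0.307. Alternatives covered the filter, an offset, the scaling, the variance model, the threshold, the choice of probe set, each array left out and the replicate number as a block.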

Additional observations from a re-analysis of the deposited data

How the results depend on the processing

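With 2 arrays per genotype, precision is limited, and a genotype left with 1 array is taken to vary like the other. No sign of the 5 tested members changed under any alternative: Adh1 ranged from -6.44 to -4.35, Rbp2 from -3.19 to -1.50, Dhrs3 from -0.95 to -0.55, Adh5 from -0.47 to -0.30 and Aldh1a1 from 1.32 to 2.20. The number of members called lower, 4, became 2 with the filter at a log2 of 6, 2 at a log2 change of at least 1 and 1 to 3 with 1 array left out. Calls of Adh1 and Aldh1a1 were lost in none of those 4 fits, that of Rbp2 without either knockout, that of Dhrs3 without control 2 or either knockout, and that of Adh5 in each, as also under quantile normalization. The 1 called higher became 2 with the filter at 3, Aldh1a2 being added. The members were chosen with this contrast known, and Adh1 and Rbp2 passed the filter through their controls alone. These calls are therefore a description and no test of the members.

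Without a filter limma called 0 members lower and 0 higher, with 4 and 1 at an unadjusted p under 0.05. It then called 0 of the wider genes in either direction (13 lower and 3 higher unadjusted), 0 neighbours of the Adh cluster (2 and 1 unadjusted), and 48 lower and 39 higher of all genes; the cause was not tested. Of the wider genes, 14 lower and 4 higher, a log2 change of at least 1 left 7 and 2, and leaving out 1 array 6 to 10 and 2 to 3. Those higher were 2 with the filter at 6 and 2 at an adjusted p under 0.01. Over all genes, 1871 lower and 1545 higher, the counts were 893 and 718 at an adjusted p under 0.01, 620 and 512 at a log2 change of at least 1, and 444 to 896 and 353 to 827 with 1 array left out. With the filter at 6, 915 were higher. The neighbours called lower were 2 instead of 1 with the filter at 6, median centring, trend and robust options, or the mean of probe sets, and 1 was higher with the filter at 3. Trmt10a ranged from -0.23 without knockout 2 to 0.42 without knockout 1.

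With the replicate number as a block, 3 members were lower and 1 higher, Adh5 being lost, 14 wider genes were lower and 4 higher, and 1587 of all genes were lower and 1280 higher. With the crossed pairing, added after the data had been seen, the counts were 4 and 1, 14 and 4, and 1924 and 1591.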
